A study of Rattus norvegicus with 6 samples.

Results

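The genes described here are 10 genes of extracellular nucleotide and adenosine signalling, matched by symbol among the 32623 genes of a table of rat liver RNA sequencing. They are 5 G protein-coupled nucleotide receptors (P2ry2, P2ry6, P2ry12, P2ry13 and P2ry14), the ATP-gated channels P2rx4 and P2rx7, the surface enzymes Entpd1 and Nt5e, and the adenosine receptor Adora2a. Each symbol had 1 row, and all 10 genes had enough counts to be among the 14499 genes tested. The genes were chosen by family with their TAE and HCC levels and differences already known, so their changes between the groups are given as a description, and the test values beside them are not independent support. The TAE group (3 libraries) underwent transarterial embolization, the blocking of the arteries that feed a liver tumour. The HCC group (3 libraries), from the same hepatocellular carcinoma study, received no treatment. The labels give the tissue of both groups as liver and do not state strain, sex, age, tumour model, the material used for embolization, the time after it, or whether tumour or surrounding liver was taken. Replicates are called biosamples, with no statement that each came from its own animal. The p-values therefore reflect variation among these samples alone, and it may be technical.

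ATP, ADP, UTP, UDP and UDP-glucose leave stressed or dying cells and act on nucleotide receptors of neighbouring cells. At the cell surface, Entpd1 (CD39) removes phosphates from ATP and ADP to give AMP, and Nt5e (CD73) converts AMP to adenosine, which acts on adenosine receptors that dampen many leukocytes. In liver, receptors of this kind are known from hepatocytes, Kupffer cells and other macrophages, endothelium and stellate cells, so the total in a tissue sample adds up several cell types. Fewer cells of a type and less RNA per cell cannot be told apart in such samples.

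Total counts were 14552885 to 16604067 in TAE libraries and 13448286 to 14370846 in HCC libraries, and the 10 genes had 17 to 2274 counts per library. The TAE libraries differed more among themselves: Pearson's r across tested genes, on log2 CPM (a count scaled by its library total), was 0.935 to 0.969 between TAE replicates and 0.984 to 0.991 between HCC replicates. TAE replicate 2 correlated at 0.967 to 0.969 with the HCC libraries. Markers of some cell types differed between the groups. The summed level of 9 macrophage and monocyte markers was 3432 to 4347 FPKM (counts scaled by exon length and library total) in TAE libraries and 976.5 to 1266 FPKM in HCC libraries. All 9 of these markers were higher in each TAE library than in any HCC library, beside 21.9% of all tested genes. Of the 9, 6 passed the test as higher, beside 2.7% of all tested genes. For 8 hepatocyte markers the sum was 9971, 7524 and 21867 FPKM in TAE replicates 1 to 3 and 17969 to 23008 FPKM in HCC libraries, so TAE replicate 3 lay within the HCC range. Of 5 Kupffer cell markers 0 passed (edgeR, unadjusted p under 0.05 for 1, C1qa), and their median log2 change was -0.05. Their sum was 417 to 1119 FPKM in TAE and 391 to 469 FPKM in HCC libraries. C1qa gave most of the TAE sums, at 328 to 785 FPKM. Clec4f, Cd5l and Marco lay below every HCC library in TAE replicates 1 and 2 and above every one in replicate 3. Vsig4 overlapped. For 7 fibroblast and stellate cell markers the sum was 1026 to 2785 FPKM in TAE and 389 to 632 FPKM in HCC libraries. All 7 were higher in each TAE library than in any HCC library, and 1 passed (beside 21.9% and 2.7% of all tested genes). For 7 endothelial markers the sum was 96.99, 54.75 and 80.05 FPKM in TAE replicates 1 to 3 and 45.16 to 55.23 FPKM in HCC libraries. Of these 7, 3 were higher in each TAE library than in any HCC library, beside 21.9% of all tested genes, and 0 passed. The part of all these markers in the results below was not tested.

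P2rx4, Nt5e and P2ry2 were the most abundant of the 10 genes in every library and gave 65.6% to 73.4% of their summed FPKM in TAE libraries and 70.0% to 77.2% in HCC libraries. On the FPKM scale, which is per length, the means in TAE were 42.9 ± 11.6 for P2rx4, 39.6 ± 12.4 for Nt5e, 20.0 ± 2.03 for P2ry2, 12.0 ± 1.53 for P2ry13, 11.7 ± 1.35 for P2ry6, 8.37 ± 1.12 for P2ry14, 5.74 ± 0.535 for Adora2a, 4.13 ± 1.12 for P2ry12, 2.23 ± 0.836 for P2rx7 and 0.963 ± 0.822 for Entpd1 (SD, n = 3). Neighbours in this order with overlapping values were P2rx4 and Nt5e, P2ry13 and P2ry6, Adora2a and P2ry12, and P2rx7 and Entpd1. In HCC the means were 29.0 ± 3.47 for Nt5e, 27.4 ± 1.94 for P2rx4, 26.7 ± 2.45 for P2ry2, 9.36 ± 3.92 for P2ry13, 5.52 ± 1.00 for P2ry14, 4.28 ± 0.732 for Adora2a, 3.86 ± 0.354 for P2ry6, 3.02 ± 0.557 for P2rx7, 1.70 ± 0.717 for P2ry12 and 0.723 ± 0.107 for Entpd1 (SD, n = 3). There the first 3 overlapped, as did each gene from P2ry13 down to P2ry6 with the next, and P2rx7 and P2ry12 met at 2.44 FPKM. Places in this order changed for P2ry6, which stood above P2ry14 in every TAE library and below it in every HCC library. P2ry12 stood above P2rx7 in every TAE library and below it in every HCC library.

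**Figure D1:**
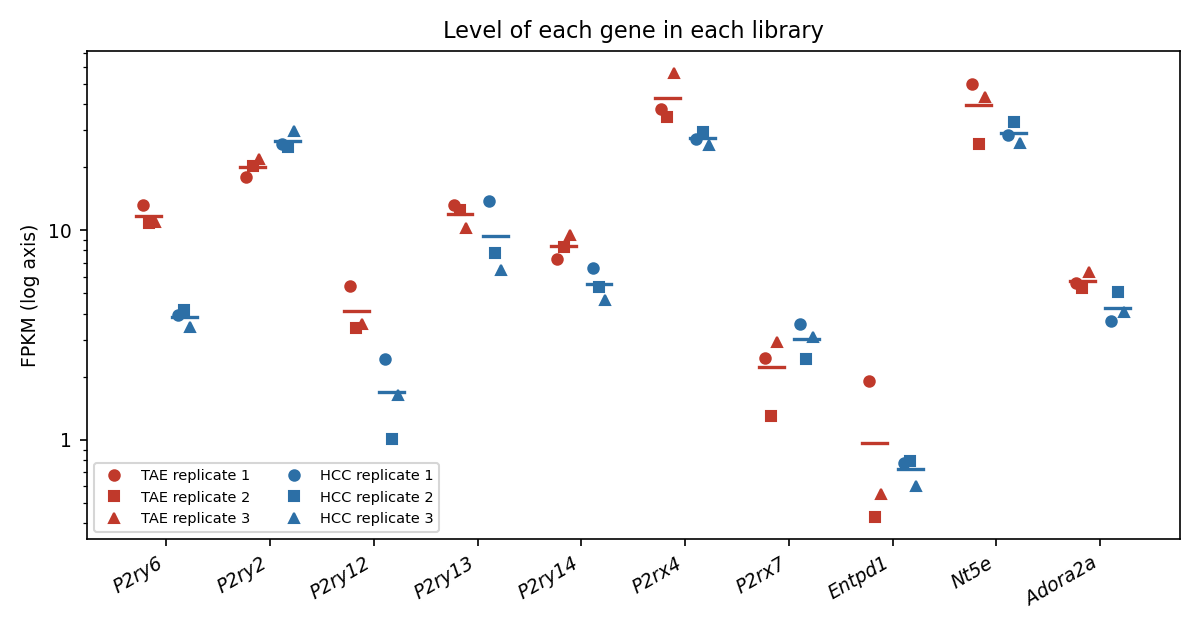
FPKM on a log axis for each of the 10 genes, with 1 point per library (TAE in red, left; HCC in blue, right) and a bar at the mean of 3 libraries. The 3 TAE points of P2ry6 lie at 10.8 to 13.2, above all 3 HCC points at 3.47 to 4.16, and 1 TAE library (replicate 1) holds the high point of Entpd1.

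Of the 10 genes, P2ry6 alone passed the test across all genes (edgeR's quasi-likelihood test, adjusted p under 0.05), and no gene of the 10 fell. Among all 14499 tested genes, 2.7% rose and 0.31% fell (3.01% together). Nothing is read from this comparison, since the genes were chosen with it known. The groups did not overlap for 5 of the 10 with higher TAE values (P2ry6, P2ry12, P2ry14, P2rx4 and Adora2a) and for 1 with lower values (P2ry2), beside 21.9% and 5.54% of all tested genes (27.5% together). The median log2 change was 0.41 for the 10 genes and -0.03 for all tested genes. An unadjusted p under 0.05 was found for 5 of the 10 and for 3296 of the 14499 genes.

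P2ry6 encodes a receptor for UDP that is known in mice to promote uptake of debris by microglia. It had 13.2, 10.8 and 11.0 FPKM in TAE replicates 1 to 3, from 475, 442 and 450 counts, against 3.95, 4.16 and 3.47 FPKM in HCC replicates 1 to 3, from 140, 138 and 121 counts. All 3 TAE libraries lay near each other and far above the HCC libraries. The log2 change was 1.55 ± 0.17 (SE, edgeR adjusted p = 0.0388), a mean 3.03 times that of HCC. With any 1 library left out the change was 1.48 to 1.67 on the log2 scale, but the call depended on which. DESeq2 and limma on log2(FPKM + 1) also called P2ry6 higher (adjusted p = 3.8e-11 and 0.0162), where limma called 4.27% of all genes higher and 0.466% lower. With a replicate block in edgeR P2ry6 was not called (log2 change 1.54, adjusted p = 0.135), in a fit that called 0 of all genes. Adjusted p was 0.00413 without TAE replicate 2 and 0.0140 without TAE replicate 3, but 0.145 without TAE replicate 1 and 0.186, 0.142 and 0.223 without HCC replicates 1, 2 and 3. In these last 4 fits edgeR called 1, 0, 1 and 0 of all genes, and the unadjusted p of P2ry6 was 0.000257, 0.00037, 0.000278 and 0.000399.

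P2ry2, the neighbour of P2ry6 on the chromosome and a receptor for ATP and UTP that raises cytosolic calcium in hepatocytes and other epithelia, had lower values in TAE. It had 17.9, 20.2 and 21.9 FPKM in TAE replicates 1 to 3, against 25.6, 25.0 and 29.5 FPKM in HCC replicates 1 to 3. The groups did not overlap, and the log2 change of -0.46 ± 0.18 (SE) did not pass (edgeR adjusted p = 0.185). Without TAE replicate 3 it passed at -0.62 (adjusted p = 0.0359), in a fit in which 3.51% of all genes fell. The hepatocyte marker sum was highest in TAE replicate 3 and lowest in TAE replicate 2, whereas P2ry2 was highest in TAE replicate 3 and lowest in TAE replicate 1. In TAE replicate 3 that sum lay within the HCC range, while P2ry2 lay below every HCC library. Most of that sum was Alb, at 15304 FPKM in TAE replicate 3. Of the 8 markers, 3 (Apob, Tat and Ttr) were, like P2ry2, lower in every TAE library than in any HCC library. The other hepatocyte markers overlapped, and 5.54% of all tested genes were lower in this way. The part of hepatocyte content in P2ry2 was not tested. Within a library, the ratio of P2ry6 to P2ry2 in FPKM was 0.741, 0.535 and 0.502 in TAE replicates 1 to 3, against 0.154, 0.166 and 0.117 in HCC replicates 1 to 3. P2ry2 remained the more abundant gene of the pair in all 6 libraries.

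P2ry12, P2ry13 and P2ry14 form a cluster of related receptors that couple to inhibitory G proteins. P2ry12 responds to ADP, is the target of antiplatelet drugs and marks resting microglia in the brain. It had 5.42, 3.42 and 3.55 FPKM in TAE replicates 1 to 3, from 99, 71 and 74 counts, against 2.44, 1.01 and 1.64 FPKM in HCC replicates 1 to 3, from 44, 17 and 29 counts. Every TAE library lay above every HCC library, but both groups were spread widely. The log2 change was 1.23 ± 0.38 (SE) and did not pass (edgeR adjusted p = 0.121). DESeq2 called P2ry12 higher (adjusted p = 0.0270), where it called 10.2% of all genes higher and 1.99% lower, and so did edgeR without TAE replicate 2 (log2 change 1.40, adjusted p = 0.0410). Platelet markers differed from each other, with Gp9, Gp1bb, Gp6 and Ppbp at no more than 0.35 FPKM in any library, while Itga2b overlapped between groups at 1.92 to 6.89 FPKM in TAE and 2.97 to 4.88 FPKM in HCC. Pf4, which macrophages also express, had 29.6 to 64.8 FPKM in TAE and 6.56 to 12.2 FPKM in HCC, and passed (log2 change 2.40, edgeR adjusted p = 0.0394). The part of platelets in the level of P2ry12 was not tested. Of 7 genes known from microglia, which other macrophages share in part, 5 were higher in all TAE libraries (beside 21.9% of all tested genes), 1 passed the test (Gpr34), and Sall1 and Siglech overlapped with log2 changes of -0.55 and -0.89. The list summed to 75.0 to 114 FPKM in TAE and 49.8 to 56.7 FPKM in HCC.

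P2ry13, another ADP receptor, had 13.2, 12.5 and 10.2 FPKM in TAE replicates 1 to 3, against 13.8, 7.77 and 6.49 FPKM in HCC replicates 1 to 3. HCC replicate 1 was the highest of all 6 libraries, so the groups overlapped, and the log2 change of 0.30 ± 0.28 (SE) did not pass (edgeR adjusted p = 0.532). It was 0.67 without HCC replicate 1, 0.20 without HCC replicate 2 and 0.12 without HCC replicate 3. P2ry14, the receptor for UDP-glucose and related UDP-sugars, had 7.27, 8.33 and 9.50 FPKM in TAE replicates 1 to 3, against 6.60, 5.33 and 4.62 FPKM in HCC replicates 1 to 3. Its groups did not overlap by a small margin, with a log2 change of 0.57 ± 0.24 (SE, edgeR adjusted p = 0.211) that was 0.38 without TAE replicate 3. Across these 3 neighbours the highest TAE level of P2ry12 and P2ry13 was in replicate 1 and that of P2ry14 in replicate 3.

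P2rx4 and P2rx7 encode subunits of ATP-gated cation channels. P2rx4 opens at low ATP and sits largely in lysosomes of macrophages, whereas P2rx7 needs high ATP and triggers the NLRP3 inflammasome. P2rx4 had 38.0, 34.5 and 56.2 FPKM in TAE replicates 1 to 3, against 27.3, 29.3 and 25.5 FPKM in HCC replicates 1 to 3. Every TAE library was above every HCC library and replicate 3 was far above the other TAE libraries. The log2 change was 0.63 ± 0.26 (SE, edgeR adjusted p = 0.212). It was 0.83 without TAE replicate 2, where it passed (adjusted p = 0.0411), and 0.29 without TAE replicate 3.

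P2rx7 had 2.47, 1.30 and 2.92 FPKM in TAE replicates 1 to 3, against 3.55, 2.44 and 3.08 FPKM in HCC replicates 1 to 3. The groups overlapped, TAE replicate 2 was the lowest library, and the log2 change of -0.45 ± 0.37 (SE) did not pass (edgeR adjusted p = 0.474). It was -0.13 without TAE replicate 2 and -0.79 without TAE replicate 3. The ratio of P2rx4 to P2rx7 in FPKM was 15.4, 26.5 and 19.2 in TAE replicates 1 to 3. In HCC replicates 1 to 3 it was 7.68, 12.0 and 8.26, so this ratio did not overlap between groups. In TAE replicate 2 it rests on 82 counts of P2rx7. The ratio of P2ry12 to P2ry13 did not overlap either (0.273 to 0.412 in TAE, 0.130 to 0.253 in HCC). That of Nt5e to Entpd1 did overlap (26.1 to 78.7 in TAE, 36.3 to 43.3 in HCC). How often ratios of other gene pairs separate the groups was not computed.

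The 2 enzymes that turn ATP into adenosine differed in level and in how they varied. Nt5e had 49.8, 25.8 and 43.3 FPKM in TAE replicates 1 to 3, against 28.3, 32.8 and 26.0 FPKM in HCC replicates 1 to 3. TAE replicates 1 and 3 were above all HCC libraries, whereas TAE replicate 2 was the lowest of the 6. The log2 change was 0.42 ± 0.28 (SE, edgeR adjusted p = 0.384). Without TAE replicate 2 it was 0.70 and passed (adjusted p = 0.0134), in a fit in which 14.6% of all genes rose, but it was 0.27 without TAE replicate 1 and 0.28 without TAE replicate 3. Adora2a, the adenosine receptor that raises cyclic AMP in leukocytes, had 5.59, 5.29 and 6.33 FPKM in TAE replicates 1 to 3, against 3.67, 5.09 and 4.07 FPKM in HCC replicates 1 to 3. The groups were separate by the small gap between TAE replicate 2 and HCC replicate 2, and the log2 change of 0.39 ± 0.23 (SE) did not pass (edgeR adjusted p = 0.334). It was 0.23 without TAE replicate 3.

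Entpd1 was the least abundant of the 10 genes, with 1.91, 0.43 and 0.55 FPKM in TAE replicates 1 to 3, from 131, 34 and 43 counts, against 0.78, 0.79 and 0.60 FPKM in HCC replicates 1 to 3, from 53, 50 and 40 counts. TAE replicate 1 was the highest library and TAE replicates 2 and 3 were the lowest, so the group had no common direction. The log2 change was 0.35 ± 0.55 (SE, edgeR adjusted p = 0.714) and turned to -0.56 without TAE replicate 1, beside 0.73 without TAE replicate 2 and 0.60 without TAE replicate 3. These values are uncertain as a measure of the gene. The table holds another row described as the same enzyme, LOC103689954, which starts 139 kb beyond Entpd1 and had 2 to 11 counts per library. Around it, Aldh18a1, Tctn3 and the cyclin gene Ccnj are each listed beside another row of the same or a like description (LOC108348083, LOC100912537 and NEWGENE_1306399). The 7 rows of this stretch other than Entpd1 had 0 to 31 counts per library. How the authors' counting treated reads that match several genes is not given in the sources used here, so reads of Entpd1 may have been split or dropped. The same uncertainty holds wherever Entpd1 is set beside the other genes.

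**Figure D2:**
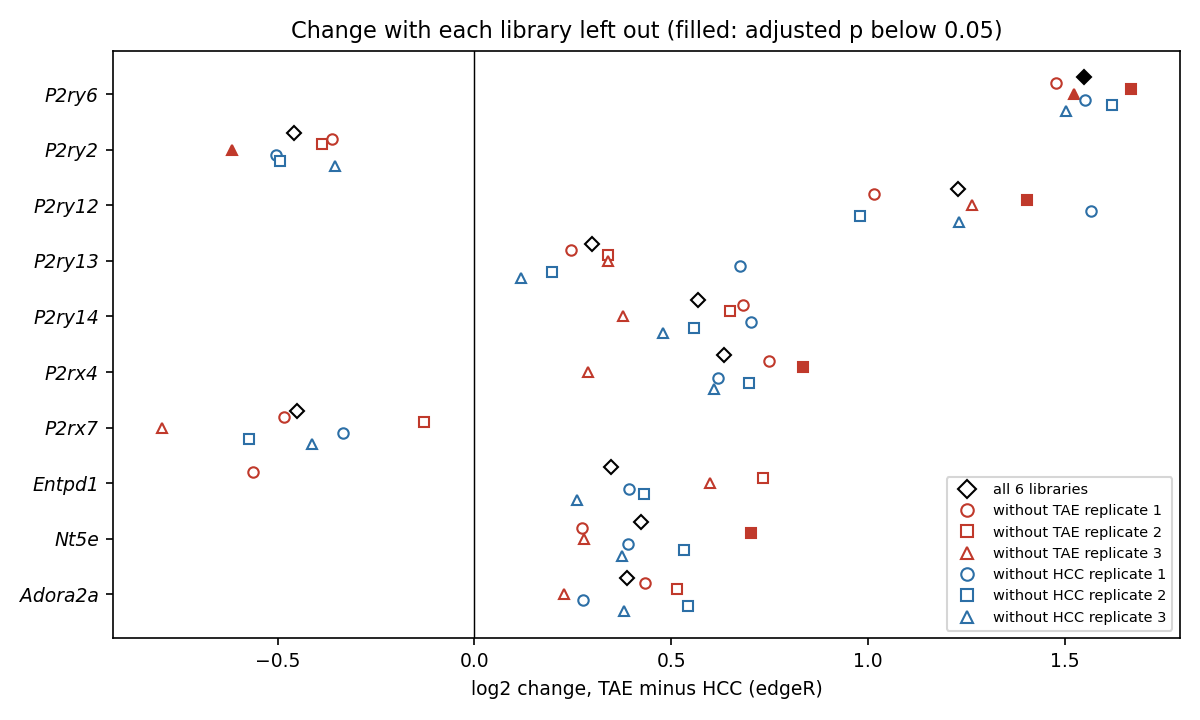
The log2 change (TAE minus HCC, edgeR) of each gene with all 6 libraries (diamond) and with each TAE (red) or HCC (blue) library left out; filled symbols passed an adjusted p of 0.05. P2ry6 stays at 1.48 to 1.67, Entpd1 crosses 0 without TAE replicate 1, and 4 genes are filled without TAE replicate 2.

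The calls among the 10 genes moved with single libraries, as did those of all genes. Without TAE replicate 2, edgeR called P2ry6, P2ry12, P2rx4 and Nt5e higher, 4 of 10 beside 14.6% of all genes (9.56% were called lower). Without TAE replicate 3 it called P2ry6 higher and P2ry2 lower, beside 4.82% and 3.51% of all genes. Without TAE replicate 1, or without any HCC replicate, it called 0 of the 10 genes (without TAE replicate 1, 0.00681% of all genes were called, all lower), with an unadjusted p under 0.05 for 2 to 4 of them.

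Of the 9 macrophage markers 6 rose, and many of the 10 genes are known from macrophages, so the level of each was also set against the summed CPM of the 9 macrophage and monocyte markers. By this ratio 8 of the 10 genes had lower values in every TAE library than in any HCC library, and P2ry6 and P2ry12 overlapped. Since the marker sum itself was far higher in TAE, 91.1% of all tested genes were lower in this way and 0.248% higher, so 8 of 10 is below that background and nothing is read from it. The median log2 ratio of all tested genes was -1.69. Against Csf1r alone, 7 of the 10 genes were lower in every TAE library and P2ry6 was higher in every one, beside 78.7% and 1.43% of all tested genes. With Cd68 alone or without Lyz2, 7 were lower and 3 overlapped, P2ry6, P2ry12 and Entpd1. Of all tested genes, 88.6% were lower in every TAE library against Cd68 alone and 82.8% without Lyz2. P2ry6 stood at 0.525%, 0.557% and 0.431% of the marker sum in TAE replicates 1 to 3, against 0.618%, 0.527% and 0.521% in HCC replicates 1 to 3. The log2 ratio of the group means was -0.14, 0.00 against Cd68 alone, 0.42 against Csf1r alone and 0.31 against the markers without Lyz2. Its sign thus depended on the marker chosen, beside a log2 change of 1.55 in the tissue. P2ry12 had a log2 ratio of -0.51, which was -0.34 against Cd68, 0.10 against Csf1r and -0.04 without Lyz2, so that its sign turned too. P2ry2 and P2rx7 had the lowest log2 ratios, at -2.16 and -2.25, and the other 6 genes lay between -1.39 and -1.11. Lyz2 alone gave 63.4% to 69.3% of the marker sum in TAE and 51.0% to 58.3% in HCC libraries. These ratios are descriptions, with no test.

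**Figure D3:**
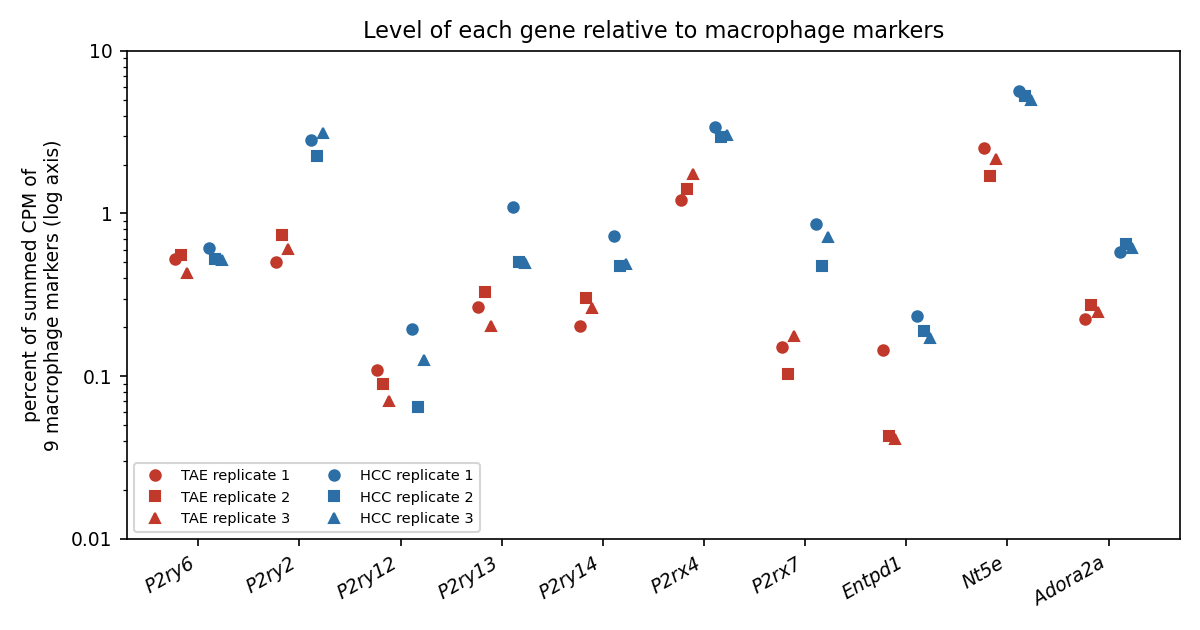
CPM of each gene as a percent of the summed CPM of 9 macrophage and monocyte markers, on a log axis, with 1 point per library (TAE in red, left; HCC in blue, right). The points of P2ry6 and P2ry12 overlap between the groups, and for the other 8 genes all TAE points lie below all HCC points, as they do for 91.1% of all tested genes.

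Several of the genes lie side by side. Coordinates are those of the deposited table, in which gene ends on chromosome 1 reach 282724300. The submitters' processing notes name mRatBN7.2, whose chromosome 1 is shorter, so which build these positions belong to is unclear. P2ry6 (ENSRNOG00000019270, chromosome 1, 165972440 to 165997751) and P2ry2 (ENSRNOG00000019283, chromosome 1, 166031272 to 166037424) are 33.5 kb apart on the minus strand, and had log2 changes of 1.55 and -0.46. P2rx7 (chromosome 12, 39353613 to 39396042) and P2rx4 (chromosome 12, 39308025 to 39325673) are 27.9 kb apart on the minus strand, with log2 changes of -0.45 and 0.63. P2ry14 (chromosome 2, 149331948 to 149347796), P2ry13 (149430854 to 149432106) and P2ry12 (149441598 to 149444548) lie within the span of Med12l, a Mediator gene on the opposite strand. Med12l had a mean of 0.335 FPKM over the 6 libraries. Whether reads were assigned by strand is not known.

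Within 100 kb of the 10 genes, 14 other genes had a mean of at least 0.5 FPKM, and 0 of these passed edgeR's test (3 had an unadjusted p under 0.05: Anapc5, Fchsd2 and Igsf10). Gpr171, a G protein-coupled receptor gene 6.04 kb from P2ry14, had 6.80, 9.97 and 10.3 FPKM in TAE replicates 1 to 3, against 6.52, 6.58 and 5.72 FPKM in HCC replicates 1 to 3 (log2 change 0.49, edgeR adjusted p = 0.265). Igsf10, 88.6 kb from P2ry12, had 6.83, 2.98 and 4.43 FPKM in TAE, against 2.31, 2.04 and 1.44 FPKM in HCC (log2 change 1.26, edgeR adjusted p = 0.0872). Around P2ry6 and P2ry2, Fam168a, Relt, Arhgef17 and Fchsd2 had log2 changes of -0.22, 0.35, 0.20 and 0.50. Around P2rx4 and P2rx7, Camkk2, Anapc5 and Ift81 had -0.36, -0.49 and -0.02. Around Nt5e, Syncrip, Snx14 and AABR07071000.1 had -0.46, 0.08 and -0.18, and around Adora2a, Specc1l and Upb1 had 0.16 and -0.46. The log2 change of P2ry6 was 1.55, beside -0.46 to 0.50 for P2ry2 and these 4 genes around the pair. Differences between these changes were not tested.

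Promoter windows of the 10 genes were read from a RefSeq (GRCr8) promoter table, in which 7 were matched: P2ry2, P2ry13, P2ry14, P2rx4, P2rx7, Entpd1 and Nt5e. Each runs from 250 bases before to 50 bases after the annotated start. The windows of the 3 most abundant genes are shown with that of P2ry13, the next in level among the 7, because they differ in base composition. Capitals mark GGGCGG, the core of the GC box, or its complement. The windows lie at chr12:39523040-39523339 (P2rx4, minus strand), chr8:98150675-98150974 (Nt5e, plus strand), chr1:164779439-164779738 (P2ry2, minus strand) and chr2:145622735-145623034 (P2ry13, minus strand).
P2rx4: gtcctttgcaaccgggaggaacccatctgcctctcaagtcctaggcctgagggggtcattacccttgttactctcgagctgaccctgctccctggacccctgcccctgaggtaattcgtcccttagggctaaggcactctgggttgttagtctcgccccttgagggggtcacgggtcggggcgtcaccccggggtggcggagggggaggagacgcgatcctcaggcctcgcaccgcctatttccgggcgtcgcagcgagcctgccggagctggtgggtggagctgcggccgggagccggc
Nt5e: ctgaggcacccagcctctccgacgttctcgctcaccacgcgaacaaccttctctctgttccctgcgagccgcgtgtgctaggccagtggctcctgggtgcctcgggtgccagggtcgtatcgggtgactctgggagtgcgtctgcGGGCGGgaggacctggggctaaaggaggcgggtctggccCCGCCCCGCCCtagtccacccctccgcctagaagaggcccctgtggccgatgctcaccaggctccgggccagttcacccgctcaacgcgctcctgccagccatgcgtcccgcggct
P2ry2: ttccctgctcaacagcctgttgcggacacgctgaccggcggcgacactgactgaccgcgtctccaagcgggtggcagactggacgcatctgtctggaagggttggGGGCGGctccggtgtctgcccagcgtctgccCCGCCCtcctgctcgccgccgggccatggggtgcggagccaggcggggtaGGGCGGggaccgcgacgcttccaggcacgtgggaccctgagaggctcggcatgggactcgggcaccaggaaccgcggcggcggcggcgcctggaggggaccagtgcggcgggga
P2ry13: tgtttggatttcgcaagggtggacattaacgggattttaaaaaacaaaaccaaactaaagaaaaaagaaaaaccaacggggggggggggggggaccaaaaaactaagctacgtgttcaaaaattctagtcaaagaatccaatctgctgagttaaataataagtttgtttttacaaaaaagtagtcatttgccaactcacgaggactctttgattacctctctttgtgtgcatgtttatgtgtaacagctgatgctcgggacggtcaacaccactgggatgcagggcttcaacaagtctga
The P2rx4, Nt5e and P2ry2 windows had a G+C content of 66.7%, 69.3% and 73.0% and held 21, 26 and 33 CG dinucleotides, more than 77.4%, 84.8% and 92.5% of the 33465 promoter windows of the table. The P2ry13 window had a G+C content of 40.7% and 7 CG dinucleotides, which equals the median of all windows. The 50 bases after its annotated start begin with atg, the start codon. That start may thus be where the coding sequence begins, so this window may not be the promoter of P2ry13. P2rx7, P2ry14 and Entpd1 had 13, 6 and 7. GGGCGG on either strand occurred 3 times each in the P2ry2 and Nt5e windows, where the last pair of Nt5e overlaps by 1 base, 2 times in that of P2rx7 and 0 times in the others, and 33.1% of all windows held it. The 3 genes with the most CG dinucleotides were the 3 with the highest mean FPKM of these 7. These are descriptions of letters in fixed windows.

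Of 47 other genes of the pathway, 38 could be tested, and 2 rose and 1 fell, beside 2.7% and 0.31% of all genes tested. DESeq2 called 8 higher and 2 lower, beside 10.2% and 1.99% of all genes. With limma on log2(FPKM + 1) 7 were higher and 1 lower, beside 4.27% and 0.466% of all genes. Their median log2 change was 0.19. The 3 genes that passed were Pycard and Nlrp3, which rose, and Entpd5, which fell. The count rested on single libraries: it was 0 without TAE replicate 1 or any 1 HCC replicate. It was 13 without TAE replicate 2 (12 higher), where 14.6% of all genes were called higher and 9.56% lower. Without TAE replicate 3 it was 10 (4 higher), beside 4.82% of all genes higher and 3.51% lower.

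Of 6 other nucleotide and adenosine receptors tested, 0 passed (3 higher and 3 lower, median log2 change 0.02, unadjusted p under 0.05 for 2). The most abundant by the mean over all 6 libraries were P2ry1, an ADP receptor, with 4.33 ± 0.348 FPKM in TAE and 4.94 ± 0.807 FPKM in HCC, and P2ry10, a lysophospholipid receptor named with this family, with 3.55 ± 1.10 FPKM in TAE and 2.95 ± 0.0814 FPKM in HCC (SD, n = 3 each). The 2 with an unadjusted p under 0.05, chosen after their values were seen, were Adora1 and P2rx1. Adora1, an adenosine receptor that lowers cyclic AMP, had 1.98, 1.90 and 2.13 FPKM in TAE and 3.18, 2.93 and 3.81 FPKM in HCC (log2 change -0.76, edgeR adjusted p = 0.111). P2rx1, an ATP-gated channel of platelets and smooth muscle, had 1.83, 2.51 and 1.55 FPKM in TAE and 1.32, 1.00 and 1.07 FPKM in HCC (log2 change 0.72, edgeR adjusted p = 0.149). P2ry4, P2rx2, P2rx5, P2rx6 and Adora3 had too few counts to be tested. Adora1 and Adora2a thus had log2 changes of opposite sign, neither of which passed.

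Of 10 tested genes listed as nucleotide-consuming enzymes, mostly of the cell surface, Entpd5 fell and the other 9 did not pass (median log2 change 0.14, unadjusted p under 0.05 for 5). Entpd5, a UDP and GDP hydrolase of the endoplasmic reticulum, had 17.8, 17.9 and 16.9 FPKM in TAE replicates 1 to 3, against 34.4, 29.0 and 28.7 FPKM in HCC replicates 1 to 3. All TAE libraries lay close together and below HCC, with a log2 change of -0.85 ± 0.13 (SE, edgeR adjusted p = 0.0388). Cd38 and Bst1, which consume NAD, had log2 changes of 0.77 and 1.11 (edgeR adjusted p = 0.0728 and 0.0655) and were chosen after their values were seen.

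None of 7 genes of nucleotide release passed (3 higher and 4 lower, median log2 change -0.14, unadjusted p under 0.05 for 1). The most abundant were the connexins Gjb1, with 48.4 ± 23.6 FPKM in TAE and 72.0 ± 7.97 FPKM in HCC, and Gja1, with 56.2 ± 20.8 FPKM in TAE and 60.0 ± 4.18 FPKM in HCC (SD, n = 3 each). None of 8 genes of nucleoside uptake and adenosine breakdown passed (4 higher and 4 lower, median log2 change 0.11, unadjusted p under 0.05 for 2). Pnp, which splits inosine and guanosine, had 514.5 ± 81.5 FPKM in TAE and 265 ± 19.0 FPKM in HCC (edgeR adjusted p = 0.0626), and Ahcy, which splits S-adenosylhomocysteine, had 129 ± 13.5 FPKM in TAE and 156 ± 5.66 FPKM in HCC (SD, n = 3 each). Adk, the kinase that clears adenosine in hepatocytes, had 52.4, 53.8 and 70.4 FPKM in TAE and 78.5, 84.6 and 78.0 FPKM in HCC (log2 change -0.48, edgeR adjusted p = 0.228, chosen after its values were seen).

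Of 7 inflammasome genes that act downstream of P2rx7, 2 rose and 5 did not pass (median log2 change 0.64), beside 2.7% of all tested genes that rose. Pycard, the adaptor ASC, had 36.0, 29.4 and 45.0 FPKM in TAE replicates 1 to 3, against 11.4, 10.4 and 10.6 FPKM in HCC replicates 1 to 3, a log2 change of 1.75 ± 0.25 (SE, edgeR adjusted p = 0.0388). Nlrp3, the sensor, had 15.3, 11.5 and 13.04 FPKM in TAE replicates 1 to 3, against 6.14, 6.34 and 5.06 FPKM in HCC replicates 1 to 3, a log2 change of 1.14 ± 0.18 (SE, edgeR adjusted p = 0.0388). Both genes are expressed by macrophages, whose markers were higher in the same libraries. The part of macrophage content in the levels of Pycard and Nlrp3 was not tested. Unadjusted p was under 0.05 for 5 of the 7 (edgeR), beside 3296 of all 14499 tested genes. The other 5 genes are named here after their values were seen. Il18, Casp1 and Gsdmd were higher in every TAE library, with log2 changes of 0.83, 0.37 and 0.64 (edgeR adjusted p = 0.0506, 0.168 and 0.0835). Of all tested genes, 21.9% were higher in this way. Nek7 overlapped, with a log2 change of -0.02. The cytokine gene Il1b overlapped between groups, with 48.3 ± 12.5 FPKM in TAE and 43.7 ± 5.08 FPKM in HCC (SD, n = 3 each). The groups overlapped for P2rx7 itself, as described above.

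**Figure D4:**
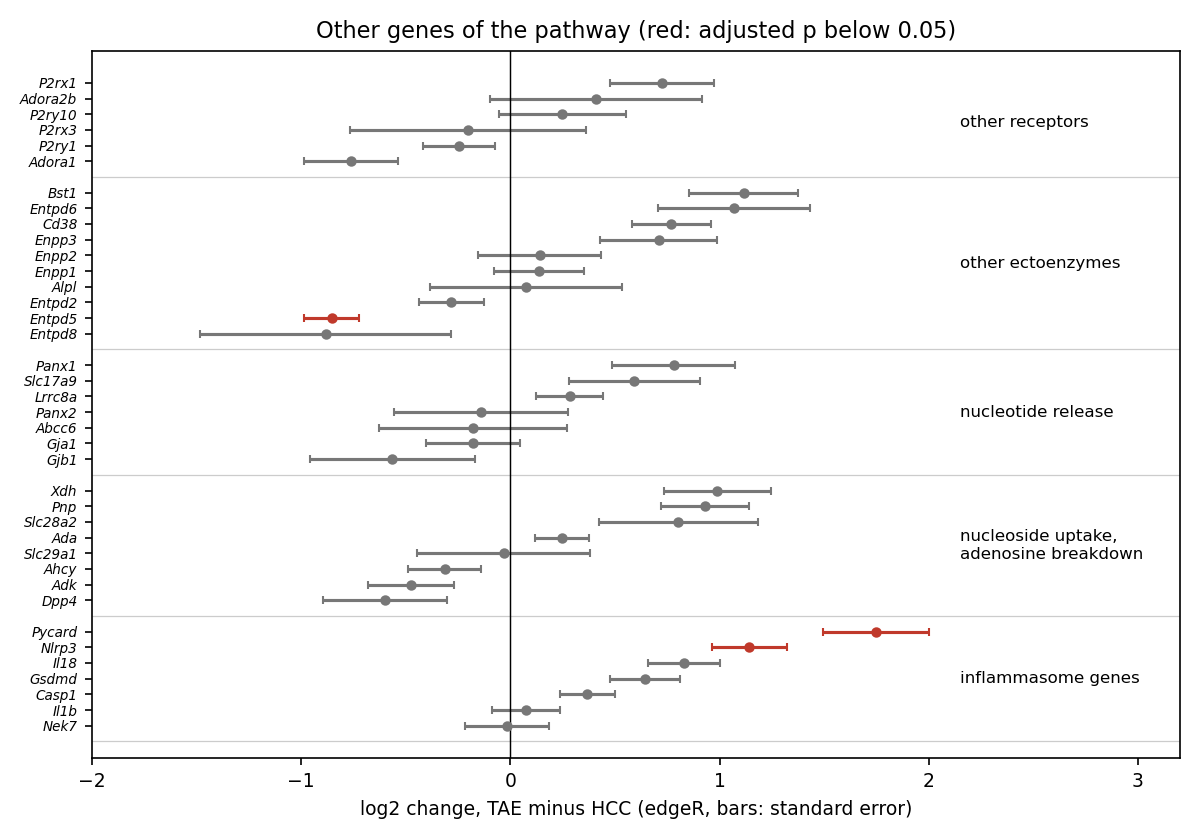
The log2 change (TAE minus HCC, edgeR, bars for the standard error) of the 38 tested genes of the pathway other than the 10 genes above, in 5 groups by role. Pycard (1.75), Nlrp3 (1.14) and Entpd5 (-0.85), in red, passed an adjusted p of 0.05.

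Genes with a like pattern were sought among 11724 named genes with a mean of at least 1 FPKM, by the root mean square difference of log2 CPM from the HCC mean over the 6 libraries. The nearest to P2ry6 were Alox5ap, needed for leukotriene synthesis (difference 0.08), and Rgs10, a regulator of G protein signalling (0.10). Alox5ap had 16.8 FPKM in TAE and 5.78 FPKM in HCC on average, and Rgs10 46.2 FPKM in TAE and 16.0 FPKM in HCC. The nearest to P2rx4 were Atp6ap2, an accessory subunit of the vacuolar proton pump (0.05), and Gpr174 (0.07). For P2ry12 they were Tnfaip8l3 (0.12) and Npr2 (0.18), for P2ry13 Ankrd12 (0.11) and Tlr4 (0.13), and for P2ry14 Pigv (0.08) and Dnase2 (0.10). For P2ry2 they were Carhsp1 (0.06) and Acads (0.06), for P2rx7 Rassf6 (0.10) and Iqgap2 (0.12), for Nt5e Guf1 (0.09) and Ttc30b (0.10), and for Adora2a RT1-CE3 (0.04) and Snx11 (0.06). Among the 10 genes themselves the closest pair was P2rx4 and P2ry14 (0.20), and P2ry6 was nearest to P2ry12 (0.44). With 6 libraries and 11724 genes to choose from, these matches are given as a description.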

How the data were processed

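Poly(A)-selected, strand-specific (dUTP) libraries were sequenced as paired ends, per the labels' protocols. The authors deposited a single table, which gives raw counts and FPKM for every gene in each library, per the file headers. The deposited FPKM values equal the count per kilobase of exonic size, scaled by the library's total count, (100% within 0.006 when recomputed). The build named in the submitters' processing notes is mRatBN7.2. Aligner, counting tool and use of strand: not given in the sources used here. Libraries were grouped by their titles.

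Counts were tested with edgeR 4.0.16 in R 4.3.3 (filterByExpr, TMM scaling, quasi-likelihood F-test, TAE minus HCC, no block, two-sided). Benjamini-Hochberg adjustment was over all 14499 tested genes, with a threshold of 0.05. Standard errors are the absolute log2 change divided by the square root of F. The biological coefficient of variation was 0.24. The edgeR fit was also run on simulated counts with the same spread in both groups. The TAE libraries here were more spread than the HCC libraries, so nothing is read from that run. Means and SDs of FPKM are over 3 libraries. All pairs of libraries differed beyond sampling noise (chi-square over degrees of freedom 5.5 or more). Alternatives were other scalings, filters, DESeq2 1.42.0, limma 3.58.1 on log2(FPKM + 1) and log2(FPKM + 0.1), robust dispersion, a replicate block, and leaving out each library.

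The members, gene lists and tests were chosen with earlier results of these data known. Named genes are all 10 members, pathway genes that passed, or else the 2 most abundant of a list, neighbours within 100 kb whose FPKM averaged 0.5 or more, and the 2 nearest genes in pattern for members averaging 1 or more. Pathway genes whose values are given outside this rule are said to be. Cell type markers, Med12l and the rows around Entpd1 are also named outside it. That pattern used log2(CPM + 0.5). Promoter sequences are from RefSeq (GRCr8).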

Additional observations from a re-analysis of the deposited data

How the results depend on the processing

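Of 159 values of the log2 change of the 10 genes under other settings, 148 kept direction and side of the threshold, 5 lost the call (all of P2ry6), 5 gained one, and Entpd1 reversed to -0.56 without TAE replicate 1 (-0.56 to 0.73 with 1 library left out). Genes called over the whole table numbered 437, but 720 with upper quartile scaling, 1036 with library totals only, 829 without a filter, 1763 with DESeq2, 701 and 709 with limma at pseudocounts of 1 and 0.1, and 0 with a replicate block (2984 with an unadjusted p under 0.05). Leaving out 1 library gave 0 to 3569. Among the 10 genes, 1 was called, 2 with DESeq2, 0 with the block (3 with an unadjusted p under 0.05; P2ry6 1.54, adjusted p = 0.135) and 0 to 4 with 1 library left out. Among pathway genes 3 were called, but 5, 9, 7, 10, 8 and 8 under the same settings up to limma at 0.1, 0 with the block, and 0 to 13 with 1 library left out. Between libraries of equal replicate number, deviations from the group mean correlated at 0.0995, -0.21 and 0.0344. With 3 libraries per group these values cannot show whether equal numbers share a batch or an animal. Against Csf1r alone, the log2 ratios to macrophage markers moved to 0.42 for P2ry6, -1.60 for P2ry2, -0.55 for P2ry14, -0.56 for P2rx4, -1.69 for P2rx7, -0.79 for Nt5e, -0.77 for Adora2a and, within the spread of libraries, 0.10 for P2ry12, -0.76 for P2ry13 and -0.86 for Entpd1. Without Lyz2, an alternative chosen after seeing the data, they moved to 0.31 for P2ry6, -1.72 for P2ry2, -0.68 for both P2ry14 and P2rx4, -0.89 for Nt5e and -0.87 for Adora2a. The causes were not tested. Entpd1 and P2ry12 rest on 34 to 131 and 17 to 99 counts per library.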
